A study of Mus musculus with 40 samples.

Results

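The copine genes Cpne1 to Cpne9 were examined in brown adipose tissue (BAT) of mice, with Cpne5 at the centre of the account. The 9 genes were taken by symbol from the 20295 genes of the count table, and all 9 were listed. Cpne5 was chosen by its measured log2 fold changes under both treatments, which were among the largest of all genes, so its treatment effects are described below without a test. The other copines were taken by name and were tested.

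Poly(A) RNA from the BAT of 40 male mice kept at thermoneutrality was sequenced, with 5 mice in each of 8 groups. The first cohort, 13 to 19 weeks old, held C-3BO mice and control littermates. C-3BO mice carry a Gpr3 transgene, targeted to the Rosa26 locus and driven by a CAG promoter, that Ucp1-Cre turns on in brown and beige adipocytes from early life. Their control littermates are labelled WT. According to the methods such controls carried either the heterozygous transgene without Cre or Cre without the transgene. Which of these each sequenced control carried is not given. C-3BO and control mice were both studied on chow and after 7 days of a high fat diet (HFD). The second cohort is labelled as wildtype, was 15 weeks old and according to the methods held control littermates of I-3BO mice, a Ucp1-CreERT2 line. These mice received CL-316,243 (CL), an agonist of the β3-adrenergic receptor, at 1 mg/kg by daily intraperitoneal injection for 9 days, or saline at 10 µL/g. In the HFD arms of this cohort injections began 2 days before the diet. According to the methods, BAT was taken the day after the last CL dose, to look at chronic rather than acute effects. GPR3, which is active without an added ligand, and the β3-adrenergic receptor both couple to Gs and raise cAMP.

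Copines are cytosolic proteins with paired C2 domains, which bind membrane phospholipids when calcium rises, followed by a domain like the A domain of von Willebrand factor that binds partner proteins. The family is old and widely kept among animals and plants. CPNE1 and CPNE3 are found in most tissues, and CPNE1 is known to hold back NF-κB signaling, while CPNE3 binds the receptor tyrosine kinase ERBB2. CPNE4 and CPNE6 are best known from neurons, CPNE6 at synapses of the hippocampus. CPNE7 has been studied in dentin formation. No role is stated here for CPNE2, CPNE5, CPNE8 and CPNE9.

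Cpne5 (RefSeq NM_153166) lies on the minus strand of chr17:29293466-29374735 in mm9, the genome build of the deposited table, and its reads were counted over 4366 exon bases. In the reference annotation it shares no exon base with another gene. The 250 bases before its deposited start are GC-rich, at 76.4% G and C against a median of 60.0% over the tested genes. They were searched on both strands for TGACGTCA, the full cAMP response element (CRE), for TGACG, its half-site, which also lies within the full element, and for AGGTCA, the half-site bound by many nuclear receptors. Because both treatments act through cAMP, the window of Cpne5 is shown with those of Cpne9, which moved the other way on HFD, and of Cpne1, the most abundant copine. Capitals mark a match to any of these motifs, and each window is written 5′ to 3′ on the strand of its gene, at chr17:29374736-29374985 (minus strand), chr6:113232051-113232300 (plus strand) and chr2:155937702-155937951 (minus strand) of mm9.
Cpne5: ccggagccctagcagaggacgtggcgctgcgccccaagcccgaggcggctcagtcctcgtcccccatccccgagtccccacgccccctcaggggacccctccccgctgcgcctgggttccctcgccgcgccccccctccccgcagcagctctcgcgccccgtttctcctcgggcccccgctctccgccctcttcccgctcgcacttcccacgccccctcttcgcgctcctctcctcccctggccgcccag
Cpne9: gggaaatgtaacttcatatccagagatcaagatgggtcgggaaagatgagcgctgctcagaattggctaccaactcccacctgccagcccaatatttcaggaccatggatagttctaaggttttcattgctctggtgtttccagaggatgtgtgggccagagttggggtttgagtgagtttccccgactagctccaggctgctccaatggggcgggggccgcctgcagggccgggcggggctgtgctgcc
Cpne1: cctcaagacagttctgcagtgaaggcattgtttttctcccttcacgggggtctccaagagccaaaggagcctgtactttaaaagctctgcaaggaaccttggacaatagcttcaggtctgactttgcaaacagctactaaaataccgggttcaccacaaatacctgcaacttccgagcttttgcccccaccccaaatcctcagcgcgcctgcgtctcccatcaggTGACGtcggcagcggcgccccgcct
None of these motifs was found in the windows of Cpne5 and Cpne9. The window of Cpne1 held 1 CRE half-site, 25 bases before the start at its first base. Over the 9 copines, 3 windows held the CRE half-site, 1 held the nuclear receptor half-site and 0 held the full CRE. Among all 20295 windows of this length 21.2% held the CRE half-site, 2443 windows held the nuclear receptor half-site and 2.14% held the full CRE. A match is a string of letters and not a shown binding site, and elements outside these 250 bases were not searched.

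The libraries held between 849126 and 15260516 counts, and the floor used below, 3 counts in a library, stood for 0.206 to 3.01 CPM. CPM were scaled with edgeR's TMM factors throughout. Floors and counting intervals cover counting error only, and the reads carry no molecular identifiers. The counting intervals pool the mice of a group and leave out the spread between mice. The targeted gene Gpr3 lay between 265.9 and 462.96 CPM in chow C-3BO mice and between 687.8 and 918.4 CPM in HFD C-3BO mice, against at most 0.744 CPM in their controls. All 6 brown adipocyte markers were present in each group, with sums of 11789 to 32405 CPM. Transcripts of epididymis (Lcn8) and liver (Alb, from 62.2 to 294.0 CPM) were present in 12 libraries with totals of 849126 to 7284129. These were all HFD saline and HFD CL libraries and replicates 4 and 5 of HFD C-3BO, and the other 28 libraries had no Lcn8 count and at most 1.62 CPM of Alb.

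Cpne5 was close to absent from unstimulated BAT and appeared under both treatments. In chow control mice it was counted 0, 1, 2, 1 and 1 times. In HFD control mice the counts were 0, 1, 3, 4 and 0. Saline mice had 0, 0, 2, 0 and 0 counts on chow and 0, 2, 0, 0 and 0 on HFD. Mice without treatment thus had at most 4 counts.

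Chow C-3BO mice had 41.3, 11.9, 21.3, 22.0 and 13.9 CPM of Cpne5, from 97 to 274 counts. HFD C-3BO mice had 37.4, 67.8, 25.0, 67.2 and 61.9 CPM. Each C-3BO mouse was above each control mouse on its diet. HFD CL mice had 6.73, 13.7, 7.85, 11.2 and 7.99 CPM, all above the HFD saline mice. Chow CL mice had 0.393, 1.07, 1.48, 1.59 and 0 CPM, so that replicate 5 had no count while the other 4 lay above each chow saline mouse. The same replicate 5 had 1644 CPM of Ucp1, the uncoupling protein of thermogenesis, which lies within the 1267 to 1865 CPM of chow saline mice. Replicate 3 of chow CL, with 16 counts of Cpne5, was the only library of the second cohort with more than 1.18 CPM of Gpr3, at 9.15 CPM.

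**Figure D1:**
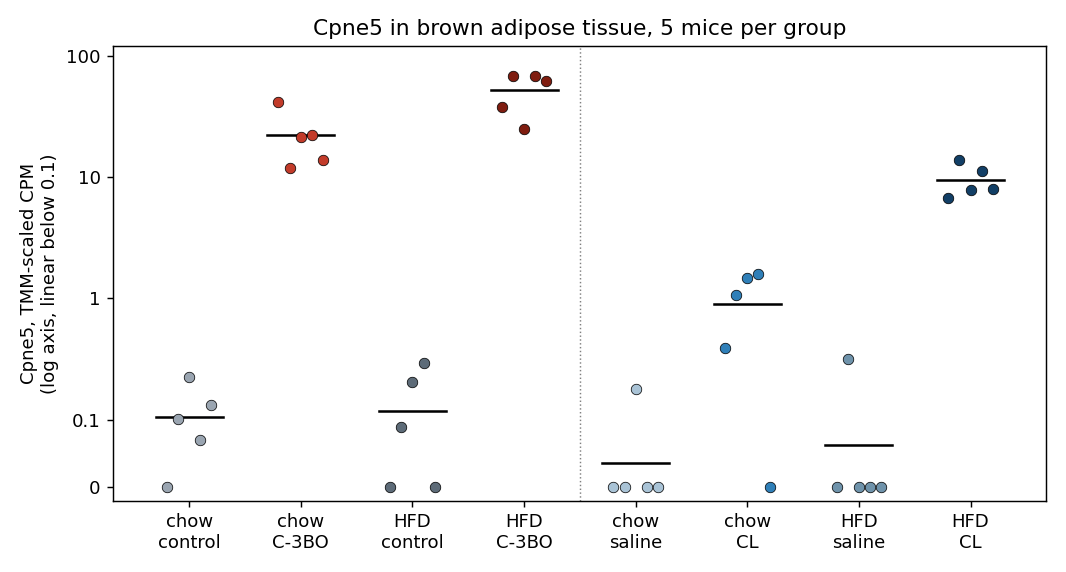
Cpne5 in TMM-scaled CPM (vertical axis, logarithmic above 0.1 and linear below) in each of 40 mice by group, with a line at the group mean. The C-3BO mice lie between 11.9 and 67.8 CPM and the HFD CL mice between 6.73 and 13.7, the chow CL mice reach 1.59, and the mice without treatment stay at or below 0.315.

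By group mean the order was HFD C-3BO with 51.9 ± 19.5 CPM (SD, n = 5), chow C-3BO with 22.1 ± 11.6, HFD CL with 9.51 ± 2.90 and chow CL with 0.905 ± 0.689. C-3BO and CL mice belong to different cohorts, and CL mice were sampled the day after their last dose. This order therefore does not rank the strength of the treatments. The mice of chow C-3BO and HFD CL overlapped in range, as did those of the C-3BO groups on both diets. The 4 groups without treatment, at 0.0358 to 0.118 CPM, were all under the floor and could not be ordered at this depth. As a description of the choice, the log2 fold change in C-3BO mice was 8.49 ± 0.53 (SE) on HFD, rank 5 of the 13277 tested genes, and 7.65 ± 0.58 on chow, rank 2. In CL mice it was 6.85 ± 0.77 on HFD, rank 1, and 4.13 ± 0.97 on chow, rank 5. With so few control counts the size of the change is loosely bounded. The ratio of summed counts per total was 23.7 (exact 95% counting interval 6.24 to 201) for CL on chow and 141 (38.7 to 1172) for CL on HFD. For C-3BO it was 227 (96.7 to 700) on chow and 386 (195 to 895) on HFD. Single saline libraries set the fitted values for CL: all saline counts on chow came from replicate 3, without which the log2 fold change was 6.02, and all on HFD from replicate 2, without which it was 9.41.

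Cpne5 had higher levels on HFD than on chow in treated mice. Its choice rests on the same treated mice, and it passed the filter on low counts only through them, so this too is a description with no test. In C-3BO mice its log2 fold change, HFD against chow, was 1.23 ± 0.32 (SE), or 2.35-fold. Of the 5 HFD C-3BO mice, 3 lay above all chow C-3BO mice. Without replicates 4 and 5 of HFD C-3BO, which held the liver and epididymis transcripts, the log2 fold change was 0.98. The transgene itself was higher on HFD in the same mice, with a log2 fold change of 1.08 ± 0.31 for Gpr3. Gpr3 too passed the filter only through C-3BO mice, so this is likewise a description.

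In CL mice Cpne5 was 10.3-fold higher on HFD, a log2 fold change of 3.36 ± 0.43. Each HFD CL mouse was above each chow CL mouse. Without the chow CL mouse that had no count the log2 fold change was 3.05. All HFD CL and no chow CL libraries held liver and epididymis transcripts, so that diet and this difference between libraries cannot be told apart in injected mice. The HFD saline libraries held them as well and had 2 counts of Cpne5 in all. In control and saline mice Cpne5 was at the floor on both diets and no fold change between diets is given.

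Markers of other cells were read beside Cpne5. Calls and adjusted p, here and below, come from edgeR's quasi-likelihood test unless stated. Adjustment was by Benjamini-Hochberg over 13277 genes, and a call is an adjusted p under 0.05. The summed level of 5 B cell markers lay between 2.33 and 9.08 CPM over all 40 mice. Its medians were 6.63 CPM in chow C-3BO and 4.31 CPM in chow control mice, and 5.85 and 4.71 CPM in the same order on HFD. In CL and saline mice they were 4.71 and 3.40 CPM on chow and 6.28 and 3.58 CPM on HFD. Of 4 tested B cell markers, 1 was called higher for CL on HFD and 0 in each other treatment comparison. A sum of 5 neuron markers lay between 0 and 2.13 CPM. The sum of the 6 brown adipocyte markers had a median of 29100 CPM in HFD C-3BO and 18852 CPM in HFD control mice, with Ucp1 alone at a mean of 14019 and 4903 CPM. Of these 6 markers, 2 were called higher and 0 lower on HFD with either treatment. On chow 3 were higher and 1 lower in C-3BO mice, and 2 were higher and 1 lower in CL mice. The part of these cells in the levels of Cpne5 was not tested. In whole tissue, more cells that express a gene cannot be told apart from more RNA per cell.

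Levels of different copines were compared only per length, as CPM per kb of counted exon. Cpne1 and Cpne3 made up most of the family in all groups. The median of Cpne1 over the 40 mice was 37.2 CPM per kb, above 86.2% of the tested genes, and that of Cpne3 was 15.5 CPM per kb. Cpne2 (2.60), Cpne8 (1.77), Cpne7 (0.595) and Cpne9 (0.470 CPM per kb) followed.

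Cpne4 had 6 counts in the 40 libraries together and Cpne6 had 18, with at most 4 in 1 library. These genes, best known from neurons, did not pass the filter on low counts, and at this depth no difference in them was detectable.

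**Figure D2:**
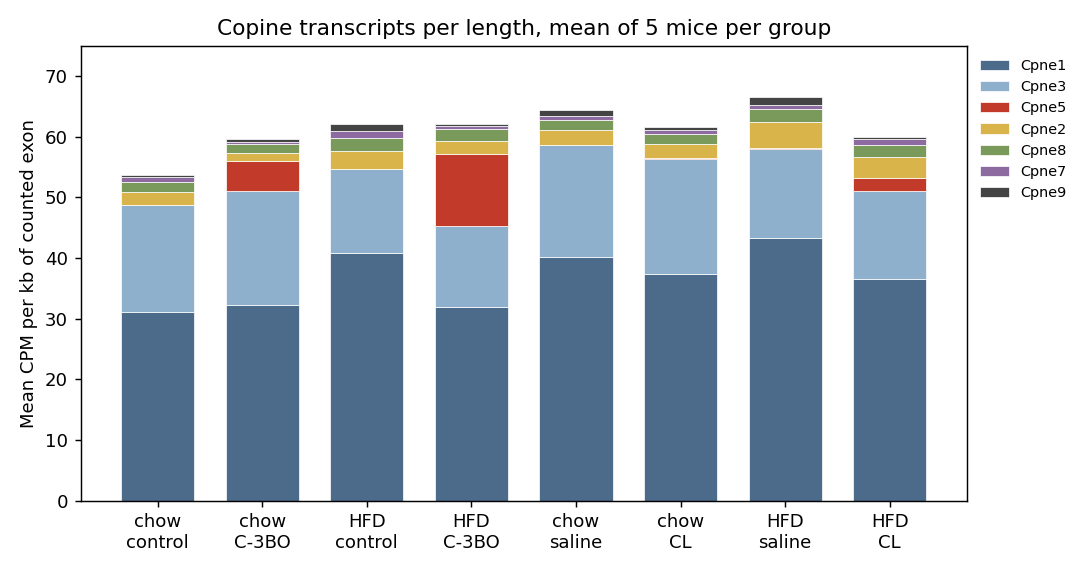
Mean CPM per kb of counted exon (bar height, 5 mice per group) of the 7 tested copines, stacked. Cpne1 and Cpne3 fill most of each bar, and Cpne5 is visible in chow C-3BO, HFD C-3BO and HFD CL mice, at 5.06, 11.9 and 2.18 CPM per kb.

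The sum over the family stayed between 53.7 and 66.6 CPM per kb as a group mean, while the place of Cpne5 in it changed. Cpne5 was 0.0466% of this sum in chow control and 0.0446% in HFD control mice. In chow C-3BO mice it was 8.27 ± 3.64% (SD, n = 5) and in HFD C-3BO mice 18.8 ± 5.87%, the largest share after Cpne1 (51.5 ± 3.10%) and Cpne3 (21.6 ± 3.84%). In CL mice the share was 0.321 ± 0.240% on chow and 3.63 ± 1.08% on HFD. In HFD C-3BO mice Cpne5, at 11.9 ± 4.47 CPM per kb, lay near Cpne3, at 13.4 ± 2.22.

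Of the 6 other tested copines, 0 were called higher in any of the 4 treatment comparisons, by edgeR. In C-3BO mice on HFD 2 of 6 were lower, Cpne1 and Cpne9, where 34.8% of tested genes were called and 15.5% as lower. In C-3BO mice on chow 2 of 6 were lower, Cpne2 and Cpne7, against 31.6% called and 15.9% as lower. In CL mice 2 of 6 were lower on HFD, again Cpne1 and Cpne9, against 23.5% called and 10.8% as lower. On chow CL moved 0 of 6 past the threshold, against 15.3% called and 6.13% as lower, 1 of the 6 had an unadjusted p under 0.05, and DESeq2 called 0. The median log2 fold change of the 6 copines was -0.37 for C-3BO on HFD and -0.09 on chow, and -0.21 for CL on HFD and -0.06 on chow, while that over all tested genes lay between -0.03 and -0.01. With counts of 0 to 2 of 6, no statement on the family as a whole is drawn from these shares.

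Cpne9 (RefSeq NM_170673, chr6:113232301-113255565, plus strand) fell in the HFD arms of both cohorts, where Cpne5 rose. HFD control mice had 4.82, 4.98, 2.47, 0.813 and 2.86 CPM of Cpne9, and HFD C-3BO mice had 0.816, 1.69, 0.367, 0.204 and 1.02. The groups overlapped through 1 control mouse, and 2 C-3BO mice lay below all controls. The log2 fold change was -1.88 ± 0.46 (SE), with an adjusted p of 0.00134. HFD saline mice had 6.20, 3.78, 2.43, 2.01 and 3.81 CPM, and HFD CL mice had 0.673, 0.509, 0.872, 1.32 and 1.09. These groups did not overlap, as for 16.4% of tested genes. The lowest HFD saline value, 2.01 CPM in replicate 4, lies under the floor of that library, 3.01 CPM. The lack of overlap thus rests in part on a value under the floor. With 1 library left out at a time, the largest adjusted p of this comparison was 0.0105 (edgeR). The log2 fold change was -2.09 ± 0.49, with an adjusted p of 0.00160. The two-sided exact permutation p was 0.00794, the smallest that 5 against 5 mice allow. Of 50 such tests over copines and comparisons, 11 reached it. The 50, and the adjustment over them, include Cpne5 between diets in C-3BO and CL mice, and the 11 include it in CL mice. These values of Cpne5 are a description and no test of it. For C-3BO on HFD the exact permutation p of Cpne9 was 0.0317, or 0.0934 after Benjamini-Hochberg adjustment over the 50 tests. The counts behind these levels were few, from 1 to 67 in a library.

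On chow the effect was not called, and Cpne9 differed by 0.36 ± 0.47 in log2 between C-3BO and control mice (adjusted p = 0.594). For CL on chow the log2 fold change was -0.97 ± 0.41 with an adjusted p of 0.107. Without replicate 2 of chow saline, which had 6.24 CPM against 1.62 to 1.97 in the other 4 mice, it was -0.41. The difference between diets in the effect of C-3BO on Cpne9 was -2.24 ± 0.66 in log2 (adjusted p = 0.0605), and for CL it was -1.12 ± 0.65 (adjusted p = 0.608), so neither passed the threshold in edgeR. For C-3BO it passed in DESeq2 (-2.27, adjusted p = 0.0317) and in edgeR without chow C-3BO replicate 3 (adjusted p = 0.0397), HFD control replicate 4 (0.0155) or HFD C-3BO replicate 2 (0.0248). Across diets the effect of CL differed in 0 of 6 copines, with 0 at an unadjusted p under 0.05, 0 by DESeq2 and 0.0151% of tested genes called.

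HFD alone raised Cpne9 in control mice, from 0.744, 0.709, 1.01, 1.32 and 0.932 CPM on chow, a log2 fold change of 1.73 ± 0.42 with an adjusted p of 0.00161. This was read against 32.9% of tested genes called, 15.4% as higher. In saline mice the same diet comparison gave 0.55 ± 0.41 (adjusted p = 0.387) and, without replicate 2 of chow saline, 1.14 (adjusted p = 0.0428). Of the saline libraries only those on HFD held liver and epididymis transcripts, which cannot be told apart from diet.

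Cpne1 (RefSeq NM_170590, chr2:155897577-155937701, minus strand) moved little but with little spread. HFD control mice had 128, 133, 136, 129 and 146 CPM of Cpne1, and HFD C-3BO mice had 96.8, 106, 102, 112 and 108. The groups did not overlap, as for 20.8% of tested genes, and the log2 fold change was -0.36 ± 0.08 (SE, adjusted p = 0.000380). HFD saline mice had 139, 139, 144, 136 and 154 CPM, and HFD CL mice had 103, 122, 131, 116 and 129, again without overlap. There the log2 fold change was -0.25 ± 0.08 (adjusted p = 0.0166), and without replicate 1 of HFD CL it was -0.19 (adjusted p = 0.107).

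On chow neither treatment moved Cpne1 past the test, with log2 fold changes of 0.05 ± 0.08 for C-3BO (adjusted p = 0.679) and -0.10 ± 0.08 for CL (adjusted p = 0.390). The effect of C-3BO differed between diets by -0.40 ± 0.11 in log2 (adjusted p = 0.0393), in a comparison that called 2.09% of tested genes, 0.731% as lower. Of the 6 copines, 1 had a called difference between diets, and the call did not hold in 7 of 20 fits that each left out 1 library. Without replicates 4 and 5 of HFD C-3BO the difference was -0.45 (adjusted p = 0.0535).

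Beside this, Cpne1 was higher on HFD than on chow in control mice, at 115, 98.3, 99.2, 101 and 99.6 CPM on chow, a log2 fold change of 0.39 ± 0.08 (adjusted p = 0.000127), without overlap, as for 18.9% of tested genes. In C-3BO mice the diet difference was -0.02 ± 0.08 (adjusted p = 0.917).

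In the reference annotation Cpne1 shares 2210 of its 6096 exon bases, or 36.3%, with Rbm12, an RNA-binding protein gene on the same strand. It shares 576 there with Nfs1, the cysteine desulfurase of iron-sulfur cluster assembly. In the deposited coordinates Rbm12 overlaps Cpne1, while Nfs1 lies 11671 bases from it and does not. How the counting assigned reads in shared exons is not given in the sources used here. The part of the 3291 counted bases of Cpne1 shared with Rbm12 was not measured, so how many of its reads came from shared exons is not known. Rbm12 rose in C-3BO mice on HFD, by 0.41 ± 0.16 in log2 (adjusted p = 0.0445), where Cpne1 fell. In control mice on HFD both were higher, Rbm12 by 0.81 ± 0.16 (adjusted p = 0.000190).

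Cpne7 and Cpne2 were lower in C-3BO mice on chow. Cpne7 (RefSeq NM_170684, chr8:125641274-125659085, plus strand) had 1.90, 1.01, 1.79, 1.11 and 3.19 CPM in chow control mice and 0.753, 0.347, 0.836, 0.443 and 0.430 in chow C-3BO mice. These groups did not overlap, as for 18.5% of tested genes, and the log2 fold change was -1.64 ± 0.50 (SE, adjusted p = 0.0113). The C-3BO libraries held only 3 to 7 counts of it. On HFD the log2 fold change was -1.05 ± 0.44 with an adjusted p of 0.0614, and it passed the test when replicate 4 of HFD C-3BO or replicate 4 of HFD control was left out (-1.44, adjusted p = 0.0171, and -1.18, adjusted p = 0.0408). For CL the values were 0.01 ± 0.42 on chow and 0.70 ± 0.49 on HFD. Cpne7 thus changed by -1.65 ± 0.66 more with C-3BO than with CL on chow (adjusted p = 0.133) and by -1.75 ± 0.66 more on HFD (adjusted p = 0.193), differences that were not called. Between treatments 0 of 6 copines differed on chow, with 2 at an unadjusted p under 0.05 and 6.24% of tested genes called, and 0 of 6 on HFD, with 1 and 1.80%. DESeq2 called 0 in both.

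Cpne2 (RefSeq NM_153507, chr8:97056928-97094429, plus strand) had 6.77, 5.06, 3.02, 4.10 and 4.26 CPM in chow control mice and 3.01, 2.78, 2.87, 3.21 and 3.01 in chow C-3BO mice. In log2 it was lower by -0.65 ± 0.25 (adjusted p = 0.0411), and 4 of 5 C-3BO mice lay below all controls. This call was lost in 7 of 10 fits that each left out 1 library, those without any of the 5 C-3BO mice or without control replicates 1 or 2, with adjusted p up to 0.191.

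**Figure D3:**
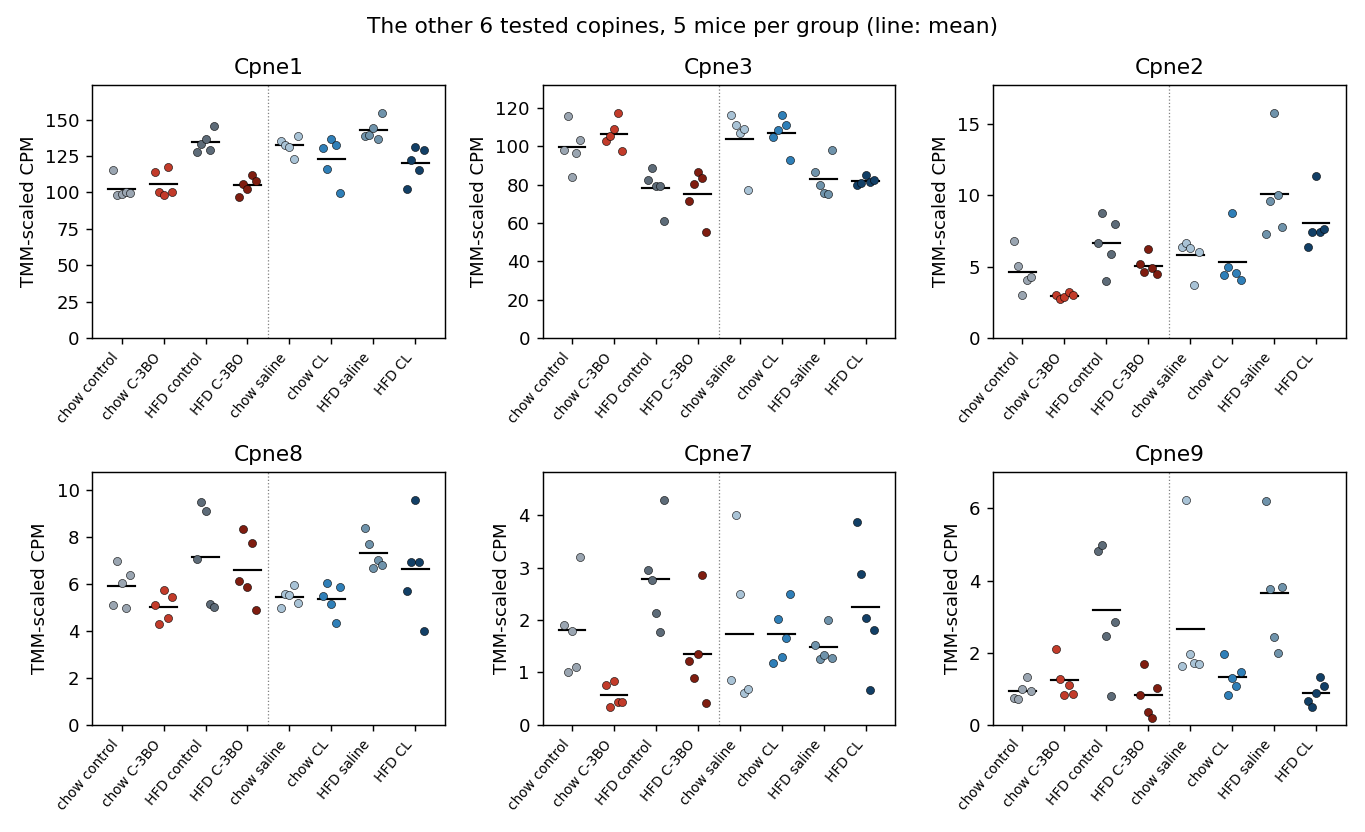
TMM-scaled CPM (vertical axes, from 0) of the other 6 tested copines in each of 40 mice by group, with a line at the group mean. Cpne9 lies at 0.204 to 1.69 CPM in HFD C-3BO and at 0.509 to 1.32 in HFD CL mice, below most mice of their control groups, and Cpne3 is lower on HFD than on chow.

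Cpne3 and Cpne8 did not pass the test in any treatment comparison. The log2 fold changes of Cpne3 lay between -0.05 and 0.10, with 95% intervals that stayed within -0.27 and 0.31 in all 4 comparisons. Those of Cpne8 lay between -0.23 and -0.02, with intervals from -0.61 to 0.34. Changes within these intervals are compatible with the data.

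Cpne3 (RefSeq NM_027769, chr4:19446399-19497251, minus strand) was lower on HFD in each of the 4 kinds of mice. All HFD and no chow libraries of CL and saline mice held liver and epididymis transcripts. Diet and this difference between libraries cannot be told apart there. Chow C-3BO mice had 103, 106, 109, 117 and 97.5 CPM and HFD C-3BO mice had 71.7, 80.1, 86.6, 83.3 and 55.3. These groups did not overlap, as for 16.0% of tested genes, and the log2 fold change was -0.49 ± 0.11 (SE, adjusted p = 0.000750). It was -0.35 ± 0.11 in control mice (adjusted p = 0.0103), -0.38 ± 0.11 in CL mice (adjusted p = 0.00806, without overlap, as for 18.2% of tested genes) and -0.31 ± 0.11 in saline mice (adjusted p = 0.0433). The call in saline mice was lost in 8 of 10 fits that each left out 1 library, and that in control mice when replicate 5 of HFD control was left out (adjusted p = 0.0775). With library totals alone as scaling, which puts the median log2 fold change of all genes at 0.15 to 0.21 in these diet comparisons, Cpne3 kept its sign and was called in C-3BO mice only.

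Cpne2 was higher on HFD in C-3BO mice, with 5.17, 4.63, 6.24, 4.89 and 4.51 CPM on HFD, all above the chow C-3BO mice. The log2 fold change was 0.78 ± 0.25 (adjusted p = 0.0207). In saline mice it was 0.80 ± 0.23 (adjusted p = 0.0159), from 6.38, 6.68, 6.35, 3.75 and 6.04 CPM on chow to 7.30, 9.60, 15.8, 10.0 and 7.78 on HFD, where 15.5% of tested genes were called and 9.03% had groups without overlap. In control and CL mice it was 0.50 ± 0.23 and 0.57 ± 0.23, with adjusted p of 0.0845 and 0.0717. It was called there in some other fits: in control mice without chow control replicate 1 (0.0260) or HFD control replicate 3 (0.0231) and with library totals (0.0244), and in CL mice without chow CL replicate 3 (0.00728) or HFD CL replicate 1 (0.0489) and with library totals (0.0205). The call in C-3BO mice was lost without chow C-3BO replicate 2 or 3 or HFD C-3BO replicate 3 (adjusted p of 0.0512 to 0.0598), and that in saline mice without chow saline replicate 4 or HFD saline replicate 3 (0.0561 and 0.123). In saline and CL mice diet cannot be told apart from the liver and epididymis transcripts that only the HFD libraries held.

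In all, 3 of 6 tested copines were called between diets in control mice, where 32.9% of tested genes were called, and 2 of 6 in saline mice, against 15.5%. Leaving aside Cpne5, 2 of 6 were called in C-3BO mice, against 25.7% (13.5% as higher), and 1 of 6 in CL mice, against 23.6% (10.9% as higher). Markers of other cells moved with diet. The summed level of 6 skeletal muscle markers was 618 to 7962 CPM in chow control and 4.32 to 165 CPM in HFD control mice. In C-3BO mice it was 305 to 2991 CPM on chow and 4.53 to 59.0 CPM on HFD. The sum of 4 endothelial markers was 514 to 809 CPM in chow control and 985 to 1368 CPM in HFD control mice, and all 4 were called higher on HFD there. All 4 endothelial markers were also called higher on HFD in C-3BO and CL mice. In saline mice all 4 macrophage markers were called higher on HFD, with sums of 125 to 301 against 49.7 to 114 CPM. Their part in the diet differences of Cpne1, Cpne2, Cpne3 and Cpne9 was not tested. In saline and CL mice only HFD libraries held liver and epididymis transcripts, so the diet counts there cannot be told apart from this difference.

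Between HFD CL and HFD saline mice, the sum of 4 fibroblast markers was 398 to 785 against 834 to 1360 CPM and that of 4 macrophage markers 47.9 to 143 against 125 to 301 CPM. Between HFD C-3BO and HFD control mice, the endothelial sum was 784 to 924 against 985 to 1368 CPM. The part of these cells in the lower Cpne1 and Cpne9 was not tested.

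**Figure D4:**
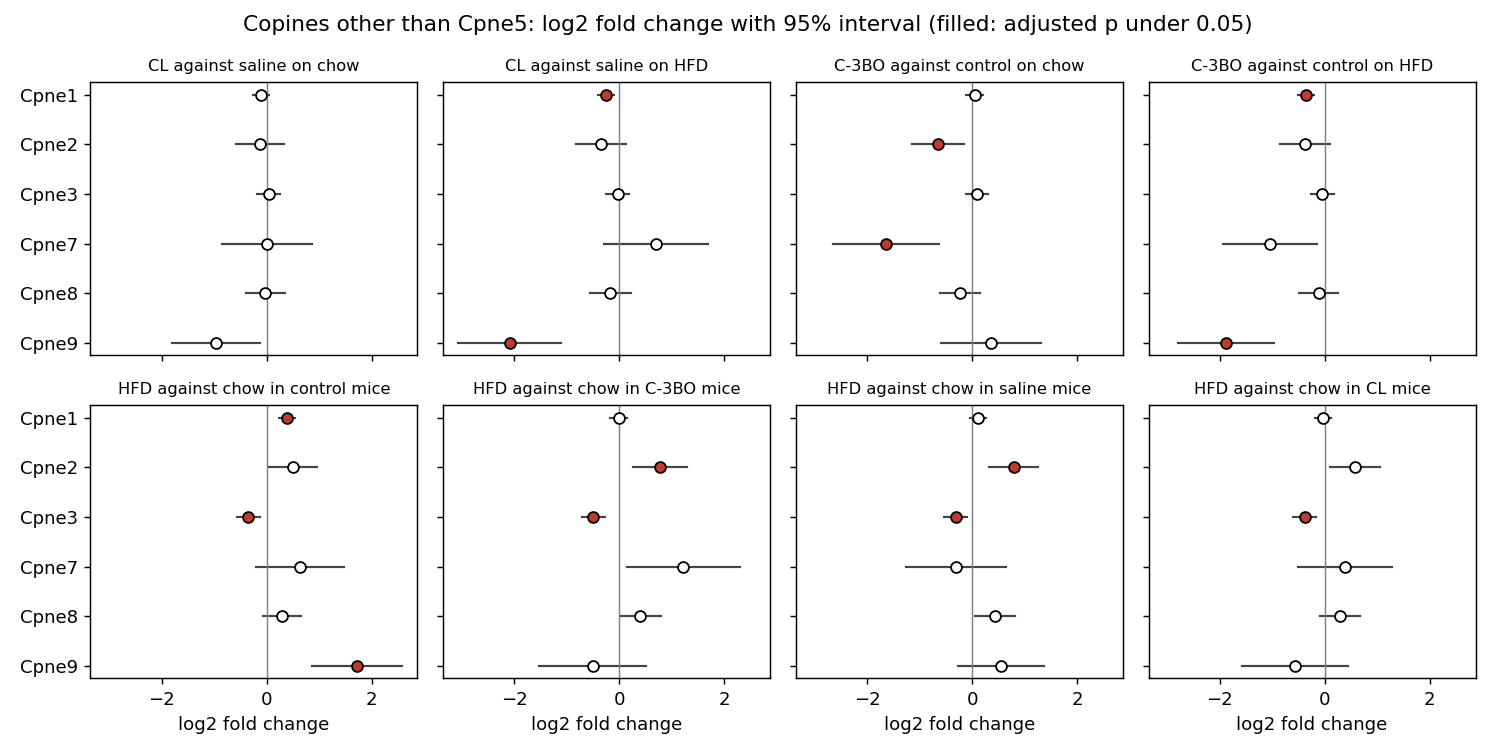
Log2 fold change (horizontal axis) of the 6 tested copines other than Cpne5 in the 4 treatment comparisons (top) and the 4 diet comparisons (bottom), with 95% intervals. Filled points passed an adjusted p of 0.05, and among treatments these are all below 0, as for Cpne9 at -2.09 and -1.88 on HFD.

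The neighbours of Cpne5 on chromosome 17 were read for the same comparisons. To its left lie Rab44, a large Rab GTPase, at 7544 bases, Cdkn1a, the cell cycle inhibitor p21, and Srsf3, a splicing factor. To its right lie Ppil1, a spliceosomal isomerase, at 13044 bases, BC004004 and Pi16. For C-3BO on HFD, 4 of these 6 were called higher, Rab44 included, against 19.3% of tested genes. They were Rab44 by 1.69 in log2, Cdkn1a by 1.25 (adjusted p = 0.00168), Ppil1 by 0.78 (9.20e-05) and BC004004 by 0.55 (0.000439). Srsf3 (0.28, adjusted p = 0.193) and Pi16 (-0.16, adjusted p = 0.775) were not called. For C-3BO on chow Ppil1 (0.64, adjusted p = 0.00138) was called, where 31.6% of tested genes were called, and Rab44 differed by 2.13. For CL on HFD Ppil1 (0.57, adjusted p = 0.00878) and BC004004 (0.57, adjusted p = 0.000760) were called, against 23.5% of tested genes. For CL on chow no neighbour was called (adjusted p of 0.392 to 0.964), where 15.3% of tested genes were called. All of the log2 fold changes of neighbours given here lie below the 4.13 to 8.49 of Cpne5. Rab44 had at most 23 counts in a library and a median of 0.505 CPM. It may have passed the filter on low counts only through C-3BO mice. Its changes are therefore a description with no test, though it is among the 4.

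Among the genes nearest to the other called copines, Rmdn1, beside Cpne3, was higher under both treatments on both diets, by 0.45 to 1.10 in log2 (largest adjusted p = 0.00275), while Cpne3 was not. Sult5a1, beside Cpne7, was 2.80 higher for C-3BO on HFD (adjusted p = 1.09e-07). Mtmr14 ends 914 bases before Cpne9 and was -0.80 lower for CL on HFD (adjusted p = 0.00282) and -0.33 for C-3BO on HFD (adjusted p = 0.183). Fam192a, beside Cpne2, was called only for CL on chow, at 0.34 (adjusted p = 0.0179).

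The tested genes with group means most like those of Cpne5 were found by the root mean square difference of the 8 group means of log2 CPM, each gene centred on its own mean. The 10 closest lay 1.12 to 1.55 log2 units from Cpne5, and the next, Vil1, lay at 1.59. In order they were Col10a1 (collagen X), Tfr2 (transferrin receptor 2), Fam131c, Slc25a34 (a member of the mitochondrial carrier family), Pla2g2e (a secreted phospholipase A2), Dnajc22, Rims2 (a presynaptic scaffold with C2 domains), Kcnd2 (a potassium channel), Acot12 (an acyl-CoA thioesterase) and Hcn2 (a cation channel). Each had smaller changes than Cpne5 for C-3BO. Cpne5 was chosen for the size of its changes and these genes for likeness to it. Their shared direction and smaller size are therefore no separate result. The log2 fold changes of Col10a1 were 4.01 on chow and 6.74 on HFD for C-3BO and 2.74 and 4.05 for CL, and its mean was 0.144 CPM in HFD control and 18.7 CPM in HFD C-3BO mice. That of Fam131c came closest to Cpne5 for CL on HFD, at 5.92. That of Pla2g2e was 4.91 for CL on chow, beside the 4.13 of Cpne5. The order depends on the measure: 8 of the 10 stayed with a prior count of 0.5, and 0 of the 10 with Pearson's correlation of the group means.

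**Figure D5:**
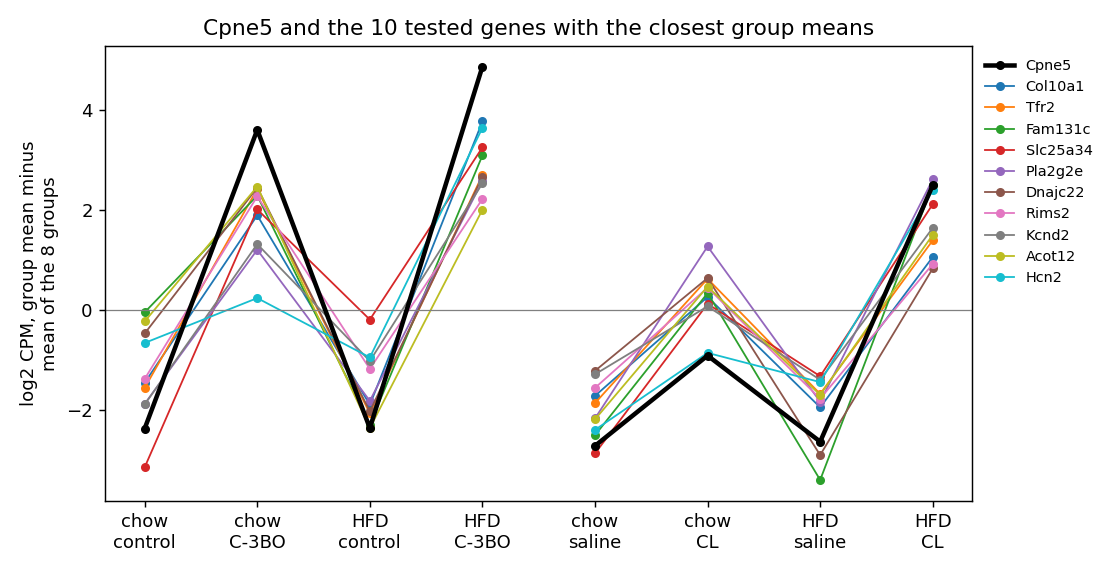
Group mean of log2 CPM minus the mean over the 8 groups (vertical axis, prior count 2) for Cpne5, in black, and the 10 tested genes closest to it. By their choice for likeness, all lie higher in C-3BO than in control and in CL than in saline mice. Cpne5, chosen for large changes, spans the widest range, from -2.71 in chow saline to 4.86 in HFD C-3BO mice.

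Rims2 is also 1 of the other genes with C2 domains, a list of synaptotagmins, ferlins and related genes of which 63 were listed and 40 tested. For C-3BO on HFD 9 of the 40 were higher and 6 lower, or 37.5% against the 34.8% of all tested genes. On chow 7 were higher and 6 lower, or 32.5% against 31.6%. With CL, 3 were higher and 5 lower on HFD, or 20% against 23.5%, and 1 and 3 on chow, or 10% against 15.3%. These shares lie near or below those of all tested genes. Named for the size of their change for C-3BO on HFD were Rims2 (3.94 ± 0.43 in log2), Syt9 (3.79 ± 0.50), Rims4 (2.16 ± 0.42) and Syt12 (1.43 ± 0.31). Rims4 and Syt12 had adjusted p of at most 0.000347. Rims2 and Syt9 had group means of at most 0.307 and 0.485 CPM without treatment. They passed the filter on low counts only through treated mice, so their changes are a description with no test, though both are among the 9. Rims2 and Rims4 serve the release of synaptic vesicles, and Syt9 and Syt12 are synaptotagmins. Rims2 was higher in all 4 treatment comparisons, with 3.55 to 7.79 CPM in HFD C-3BO and at most 0.591 CPM in HFD control mice.

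Annexins bind membranes in a calcium-dependent way as well, without C2 domains. Of 12 listed, 10 were tested, with 1 higher and 3 lower for C-3BO on either diet, or 40% against 34.8% of all tested genes on HFD and 31.6% on chow. With CL, 1 was higher and 2 lower on HFD, or 30% against 23.5%, and 1 higher and 0 lower on chow, or 10% against 15.3%. Anxa5 was higher in all 4 treatment comparisons, by 0.76 ± 0.08 for C-3BO on chow, 0.61 ± 0.08 for C-3BO on HFD, 0.29 ± 0.08 for CL on chow and 0.49 ± 0.08 for CL on HFD (largest adjusted p = 0.00728). Anxa2 was lower for C-3BO, by -0.67 ± 0.14 on chow and -0.79 ± 0.14 on HFD, as was Anxa3, by -0.80 ± 0.17 and -0.49 ± 0.16. For CL, Anxa2 differed by 0.24 on chow (adjusted p = 0.252) and -0.36 on HFD (adjusted p = 0.0554).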

How the data were processed

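RNA from the BAT of 40 mice was sequenced as poly(A) libraries. Per the methods and labels, the authors aligned the reads to mm9 with STAR, processed them with HOMER and counted exon reads per RefSeq gene with iRNA-seq, and deposited raw counts, 1 column per library. Tool versions, strand and the handling of reads in shared exons are not given in the sources used here. Libraries were grouped by the labels.

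From these counts edgeR 4.0.16 (R 4.3.3, limma 3.58.1) fitted 1 mean per group over all 40 libraries, with TMM factors, filterByExpr at a minimum count of 10 and quasi-likelihood tests. Of 20295 genes 13277 were tested. P-values were adjusted by Benjamini-Hochberg over these genes within a comparison, and an adjusted p under 0.05 was called. The spread is that between mice. SE is the log2 fold change over the root of the F statistic. The fit was checked on simulated counts. Single copines were also compared by exact permutation of 5 against 5 mice. After adjustment over these tests, Cpne9 for C-3BO on HFD and for diet in control mice (both 0.0934) did not pass. Nor did Cpne2 for C-3BO on chow (0.0611) or Cpne3 for diet in control (0.0611) and saline mice (0.113). Leaving aside Cpne5, the other edgeR calls of treatment or diet passed it, as did Cpne8 for diet in saline mice (0.0361). Promoter windows, the 250 bases before the deposited start, and exon overlaps came from the mm9 genome and the GENCODE annotation of the same build. DESeq2 1.42.0, other scalings, no filter, a replicate block and omission of libraries were tried. Replicate numbers were not treated as pairs, and what they stand for is not given in the sources used here. No comparison had a correlation of deviations over 0.1 in all 5 pairs, which cannot exclude shared litters or batches. The mean correlation was highest for C-3BO on chow, at 0.172, with 3 pairs over 0.1.

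The members and gene lists were chosen with earlier results of these data known. Named were all copines, the 10 genes most like Cpne5, the 3 neighbours on either side of it and the nearest or overlapping neighbour of each called copine, and at most 5 C2-domain genes and 3 annexins with the largest changes among those called for C-3BO on HFD. Nfs1 was named after its values were seen. 1 gene that this rule names is not reported here. Protein sequences were not used here.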

Additional observations from a re-analysis of the deposited data

Results flagged for a closer look

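In 6 of 53 sets of 5 mice, each 1 copine in 1 group, a single library lay far from the other 4 by Dixon's test. Chance alone would give about 2.65 such sets, at 1 in 20. Cpne9 was 6.24 CPM in replicate 2 of chow saline against 1.62 to 1.97 in the other 4 mice. Cpne2 was 3.75 CPM in replicate 4 of chow saline against 6.04 to 6.68, 8.78 CPM in replicate 3 of chow CL against 4.06 to 4.98, and 11.3 CPM in replicate 3 of HFD CL against 6.39 to 7.63. Cpne3 was 77.2 CPM in replicate 5 of chow saline against 107 to 116. Cpne1 was 115 CPM in replicate 1 of chow control against 98.3 to 101.

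The effect of C-3BO on Cpne1 differed between HFD and chow by -0.40 in log2, tested as an interaction with an adjusted p of 0.0393 (edgeR).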

How the results depend on the processing

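Of 841 values of single copines under other settings, over 46 results, 779 kept direction and side of the threshold, 41 lost the call, 18 gained it, 1 changed sign and 2, both of Cpne5 for CL, moved with single saline libraries. These 841 values include those of Cpne5, whose changes are described here without a test. With library totals alone as scaling, 1 copine was called for CL on chow (0 with TMM). For diet in C-3BO mice that scaling added calls of Cpne7 and Cpne8. For the difference between diets in the C-3BO effect it called 0 (1 with TMM). It put the median log2 fold change of all genes between -0.23 and 0.21. For C-3BO on chow, 1 copine was called without a filter and 1 with the libraries of the comparison alone, against 2. For diet in saline mice, 1 was called with RLE factors and 1 with the libraries of the comparison alone, against 2. The difference between diets in the C-3BO effect was called for 0 copines with the libraries of the comparison alone, 0 without HFD C-3BO replicates 4 and 5 and 2 with DESeq2, which adds Cpne9. Without those replicates Cpne5 between diets in C-3BO mice was 0.98 in log2, against 1.23 with them. The causes were not tested. Of the 10 genes most like Cpne5, 0 stayed with Pearson's correlation.

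With the replicate block, that same difference was called for 0 copines, Cpne1 at -0.40 with an adjusted p of 0.0555 (edgeR). No other call of a copine changed under the block. What the replicate numbers stand for is not known, and the reason for this change was not tested.

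When 1 library at a time was left out, the log2 fold change of Cpne5 ranged from 3.76 to 6.02 for CL on chow and from 6.43 to 9.41 on HFD. Called copines ranged from 1 to 2 for CL on HFD (1 without HFD CL replicate 1), 1 to 2 for C-3BO on chow, 0 to 2 for diet in saline mice, 0 to 2 for the difference between diets in the C-3BO effect, and 0 to 1 for that between treatments on chow, where Cpne7 was called without chow saline replicate 2. Cpne7 between diets in saline mice, not called, ranged from -0.50 to 0.25 and changed sign without chow saline replicate 2. Depth limits Cpne4, Cpne6 and Cpne5 in untreated mice, which lie at or near the floor.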
